A study of Mus musculus with 6 samples.

Results

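The 44 genes described here encode factors that build ribosomes in the nucleolus. They were taken as a list of nucleolar and pre-ribosome assembly symbols, chosen with earlier results of these data known. All 44 were found among the 35602 genes of the count table and among the 34714 genes of the single-library tables. Bulk RNA-seq was carried out on mouse splenic CD4+ T cells, isolated with a CD4 T cell kit and stimulated with antibodies to CD3 and CD28 over 72 h, to compare cells given MAPK13-IN-1, an inhibitor of the p38 family kinase Mapk13, with cells given the solvent DMSO. Each group had 3 libraries. For replicates 2 and 3 the labels give the genotype as WT, and the addition of 17.1 µM inhibitor, or of DMSO, after day 1 of stimulation. The labels of replicate 1 name the tissue, the cells and the agent but no genotype, dose or day of addition, and its libraries came from another kit (stranded) than those of replicates 2 and 3 (poly-T beads). The labels do not say whether replicates were separate cultures or animals, so p-values measure only the spread between these samples.

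Replicates 2 and 3 were deposited as gene counts, and totals were 26874805 and 28487403 with DMSO against 33854760 and 32617702 with the inhibitor. Levels from this table are given as CPM (counts scaled to a common library size, after TMM normalisation), always with replicate 2 before replicate 3, and changes as log2 fold changes of inhibitor over DMSO (2 libraries against 2) with the standard error (SE) from edgeR's quasi-likelihood test. A gene was called lower or higher at an adjusted p under 0.05 over all 16269 genes tested. All 44 members passed the filter on low counts, and the lowest count of any member in any library was 367. The pair of replicate 1 libraries holds 1 value per gene in a unit read here as FPKM from the values, with unknown depth; its ratios are log2 of inhibitor over DMSO after adding 1 FPKM, and with 1 library a group they carry no error and no test.

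The libraries of replicates 2 and 3 were checked against marker genes of the cells they could hold, and B cell markers were abundant in them. Scaled to exon length, the 7 B cell markers found of 8 summed to 396 and 390 CPM per kb with DMSO and 439 and 440 with the inhibitor, and the 8 CD4 T cell markers to 440 and 443 with DMSO and 260 and 287 with the inhibitor. In the replicate 1 pair the same lists summed to 46.8 and 34.9 FPKM for B cells and 1278 and 1178 FPKM for CD4 T cells, DMSO first. By edgeR 7 of 8 CD4 T cell markers (87.5%) were called lower and 5 of 7 B cell markers (71.4%) higher, against 32.3% lower and 31.5% higher over all genes tested. Exceptions, named after their values were seen, included Cd4 itself, at 275 and 276 CPM with DMSO and 267 and 283 CPM with the inhibitor (-0.0006, adjusted p = 0.993, edgeR), and in the B cell list Cd22, called lower (-0.39). The sign of Cd4 turned with RLE, upper-quartile and library total scaling, in no case called. By CPM summed over the 4 libraries and not scaled to length, Cd5 was highest in the T cell list, at 426 and 439 CPM with DMSO and 154 and 200.1 CPM with the inhibitor, and Pax5 in the B cell list, at 178 and 168 CPM with DMSO and 263 and 271 CPM with the inhibitor. Cells labelled CD4+ T thus came with B cell transcripts in replicates 2 and 3, and both lists moved with the treatment; in bulk RNA, fewer cells of a type and less RNA per cell cannot be told apart. Other lists were lower in level than the T and B cell lists in every library. Scaled to exon length, the erythroid list summed to 8.65 and 8.04 CPM per kb with DMSO and 117.2 and 82.96 with the inhibitor. The CPM sums that follow are not scaled to length. The 7 erythroid markers summed to 7.83 and 7.43 CPM with DMSO and 89.7 and 64.2 with the inhibitor (highest summed CPM, Hbb-bs), the 8 myeloid markers to 13.3 and 11.7 against 40.6 and 34 (highest, Cd68; S100a9 at 0 in all 4 libraries), and the 2 CD8 T cell markers to 11.7 and 10.9 against 5.49 and 7.85 (highest, Cd8b1). In the pair these lists summed to 0.928 and 1.93, 3.44 and 9.02, and 3.49 and 8.39 FPKM in the same order, DMSO first, with S100a8 listed at 0 in the inhibitor library. The part of these shifts in the changes of the 44 genes was not tested.

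Ribosome synthesis starts in the nucleolus, where RNA polymerase I transcribes the long precursor of the rRNAs. Small nucleolar RNPs guide the chemical modification of that precursor, and large sets of assembly factors fold and cut it into the small and the large subunit. A T cell that leaves quiescence enlarges its nucleoli and makes many ribosomes before it divides, and many of these genes are known targets of Myc.

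Most of the 44 genes were lower with the inhibitor. By the count test 33 of 44 (75%) were called lower and 1 (2.27%) higher, against 32.3% lower and 31.5% higher over all genes tested. The median log2 fold change of the members was -0.40 and that of all genes 0.012. Below a log2 fold change of -1 fell 9 members, where 10.4% of all genes were called lower by as much. In the replicate 1 pair 38 of 44 (86.4%) had a ratio below 0, against 39.3% of the 15825 tested genes listed there, and the median was -0.38 against 0.069 for those genes. Together the members held 0.631% and 0.647% of all counts with DMSO and 0.588% and 0.564% with the inhibitor. Npm1 and Ncl alone made up 43.8% and 42.3% of these counts with DMSO and 49.9% and 49.8% with the inhibitor, and without them the share went from 0.355% and 0.373% to 0.294% and 0.283%. Both inhibitor libraries thus lay below both DMSO libraries, and the gap was wider once Npm1 and Ncl were set aside.

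**Figure D1:**
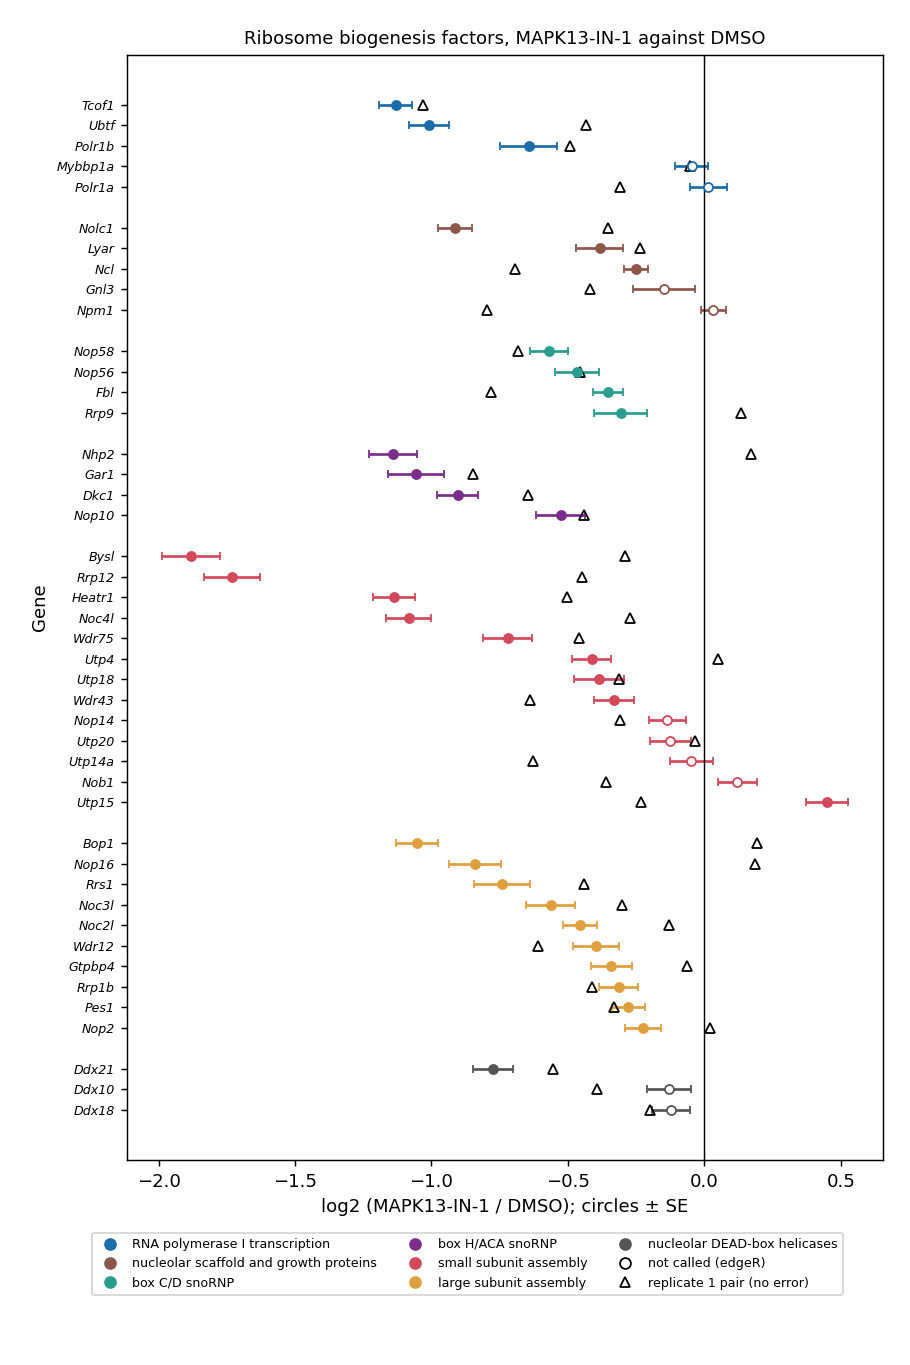
Log2 ratio of MAPK13-IN-1 over DMSO for each of the 44 genes, grouped by role. Circles show the count table (2 libraries against 2, bars ± SE, open where not called by edgeR) and triangles the replicate 1 pair (log2 after adding 1 FPKM, no error); 33 filled circles lie left of 0 and 1, Utp15, lies right of it.

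The factors of RNA polymerase I transcription divided into a part that fell and a part that did not pass the test. Tcof1, the treacle protein that links the polymerase to its upstream factor on rDNA, stood at 172 and 181 CPM with DMSO and 80.4 and 80.7 CPM with the inhibitor. Its log2 fold change was -1.13 ± 0.060 (SE; adjusted p = 1.82e-07, edgeR), and in the replicate 1 pair it went from 45.7 FPKM with DMSO to 21.9 FPKM with the inhibitor, a ratio of -1.03 and the lowest of the 44. Ubtf, the upstream binding factor that keeps rDNA open, stood at 131 and 148 CPM with DMSO and 70.9 and 67.5 CPM with the inhibitor. In both genes the inhibitor libraries lay far below the DMSO libraries, with log2 fold changes near -1 (-1.01 for Ubtf, adjusted p = 1.17e-06, edgeR). Polr1b, the second largest subunit of the enzyme, stood at 33.2 and 40.1 CPM with DMSO and 22.9 and 23.99 CPM with the inhibitor, a log2 fold change of -0.64 ± 0.10 (SE; adjusted p = 0.000333, edgeR). Polr1a, the largest subunit, did not follow it, at 92.96 and 101 CPM with DMSO and 95.97 and 100.4 CPM with the inhibitor, and the groups overlapped (0.015, adjusted p = 0.86, edgeR). Its sign turned to -0.059 without DMSO replicate 2 and -0.025 without MAPK13-IN-1 replicate 3, while the value was 0.14 with library totals (adjusted p = 0.0853, edgeR) and 0.095 with upper-quartile factors. Mybbp1a, a nucleolar protein that binds Myb and p53 and takes part in rRNA processing, was the most abundant of the 5 in the pair (61.4 FPKM in the DMSO library and 59.1 FPKM in the inhibitor library) and stood at 305 and 335 CPM with DMSO and 316 and 303 CPM with the inhibitor in the count table. Its groups overlapped too (-0.047, adjusted p = 0.517, edgeR), and its sign turned with other scalings (0.079 with library totals, 0.034 with upper-quartile factors) and without DMSO replicate 3 (0.015). All 5 ratios of the pair were below 0, against 39.3% of the 15825 genes tested that the pair lists.

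Of the 5 nucleolar scaffold and growth proteins 3 (60%) were called lower in the count table, against 32.3% of all genes tested. All 5 had a ratio below 0 in the pair, against 39.3% of the 15825 genes. The called genes stood there at -0.35 for Nolc1, -0.69 for Ncl and -0.24 for Lyar, and the lowest ratio was that of Npm1, which was not called. Nolc1, the phosphoprotein that brings snoRNPs to the nucleolus, fell most in the count table, from 134 and 135 CPM with DMSO to 69.9 and 72.95 CPM with the inhibitor (log2 fold change -0.91 ± 0.061, SE; adjusted p = 7.28e-07, edgeR). Ncl, nucleolin, which binds the nascent precursor, stood at 1033 and 1047 CPM with DMSO and 879 and 869.7 CPM with the inhibitor. Lyar, a zinc finger protein of growing cells, stood at 32.2 and 31.2 CPM with DMSO and 24.6 and 24.02 CPM with the inhibitor. The fall was small for both, at log2 fold changes of -0.25 for Ncl (adjusted p = 0.00071, edgeR) and -0.38 for Lyar (adjusted p = 0.00276, edgeR), with no overlap between groups. With library totals Ncl was at -0.12 (adjusted p = 0.0301, edgeR) and with upper-quartile factors at -0.17. Npm1, nucleophosmin, the scaffold of the granular outer zone, was the most abundant member per length, at 847 FPKM in the DMSO library and 487 FPKM in the inhibitor library in the pair, a ratio of -0.80. In the count table it stood at 1846 and 1820 CPM with DMSO and 1920 and 1832 CPM with the inhibitor, with overlapping groups and a log2 fold change of 0.034 (adjusted p = 0.531, edgeR). This value was called higher with library totals (0.16, adjusted p = 0.00934, edgeR) and with upper-quartile factors (0.11, adjusted p = 0.0482, edgeR), and it was -0.0002 without MAPK13-IN-1 replicate 2. Npm1 has many processed copies in the genome that could share its reads, so its level is uncertain. Gnl3, nucleostemin, a GTPase of proliferating cells, stood at 46.1 and 51.6 CPM with DMSO and 49.6 and 38.6 CPM with the inhibitor, and only MAPK13-IN-1 replicate 3 lay below both DMSO libraries. Its log2 fold change of -0.15 (adjusted p = 0.279, edgeR) became -0.34 without MAPK13-IN-1 replicate 2 (adjusted p = 4.06e-05, edgeR) and 0.016 without MAPK13-IN-1 replicate 3, and it was -0.021 with library totals.

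The box C/D snoRNPs add methyl groups to ribose in rRNA. All 4 of their listed genes were called lower (100%, against 32.3% of all genes tested). Nop58, one of the paired core proteins, stood at 98.3 and 105 CPM with DMSO and 71.2 and 65.9 CPM with the inhibitor (log2 fold change -0.57 ± 0.069, SE; adjusted p = 4.59e-05, edgeR). Nop56, its partner in the core, stood at 160.1 and 169 CPM with DMSO and 129 and 109 CPM with the inhibitor (-0.47, adjusted p = 0.000465, edgeR). Fbl, fibrillarin, the methyltransferase itself, stood at 195 and 199.6 CPM with DMSO and 155 and 154 CPM with the inhibitor (-0.35, adjusted p = 0.000257, edgeR). No group overlapped in these 3 genes, and the pair gave ratios of -0.68 for Nop58, -0.46 for Nop56 and -0.78 for Fbl, which had the highest DMSO level of the group there (146 FPKM in the DMSO library and 84.2 FPKM in the inhibitor library). Rrp9, the protein bound to the U3 snoRNA, stood at 28.2 and 32.1 CPM with DMSO and 23.5 and 25.3 CPM with the inhibitor, a log2 fold change of -0.31 (adjusted p = 0.0184, edgeR). It was higher in the pair (27.8 FPKM in the DMSO library and 30.5 FPKM in the inhibitor library), and its call was lost with library totals (-0.18), with upper-quartile factors (-0.23), with DESeq2 (-0.30) and without DMSO replicate 3 (-0.22).

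The box H/ACA snoRNPs convert uridine to pseudouridine, and their 4 core proteins had the lowest median of any role group, -0.98. Nhp2, a core protein that binds the RNA, stood at 65.9 and 64.9 CPM with DMSO and 27.4 and 31.96 CPM with the inhibitor (log2 fold change -1.14 ± 0.088, SE; adjusted p = 1.8e-06, edgeR). Gar1, which loads and releases the substrate, stood at 36.7 and 43.3 CPM with DMSO and 18.7 and 19.8 CPM with the inhibitor (-1.06, adjusted p = 8.59e-06, edgeR). Dkc1, dyskerin, the pseudouridine synthase that also belongs to telomerase, stood at 56.6 and 55.5 CPM with DMSO and 29.5 and 30.4 CPM with the inhibitor (-0.90, adjusted p = 3.23e-06, edgeR). For all 3 genes both inhibitor libraries lay well under the DMSO libraries. Nop10, the small protein that holds the core together, had the highest DMSO level of the group in the pair (83.02 FPKM in the DMSO library and 60.9 FPKM in the inhibitor library) and stood at 35.6 and 36.7 CPM with DMSO and 26.5 and 23.7 CPM with the inhibitor in the count table (-0.53, adjusted p = 0.000487, edgeR). Gar1 and Dkc1 were lower in the pair as well, with ratios of -0.85 and -0.65. Nhp2 went the other way there, from 68.3 FPKM with DMSO to 77.1 FPKM with the inhibitor, a ratio of 0.17.

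Small subunit assembly held the largest falls and the only member called higher. Of its 13 genes 8 (61.5%) were called lower and 1 (7.69%) higher, against 32.3% and 31.5% of all genes tested. Bysl, bystin, which acts late on the small subunit in the nucleus, stood at 39.9 and 43.02 CPM with DMSO and 10.3 and 12.2 CPM with the inhibitor. Its log2 fold change of -1.88 ± 0.11 (SE; adjusted p = 2.65e-07, edgeR) was the lowest of the 44. Rrp12, which helps export of the pre-ribosomes, stood at 46.03 and 47.5 CPM with DMSO and 12.9 and 15.3 CPM with the inhibitor (log2 fold change -1.73 ± 0.10, SE; adjusted p = 3.11e-07, edgeR). Neither gene's groups came near each other, but in the pair the ratios were only -0.29 for Bysl and -0.45 for Rrp12. Noc4l, a partner of Nop14, had a log2 fold change of -1.08 (adjusted p = 1.59e-06, edgeR).

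Within this group the factors that bind the start of the nascent precursor and tie its transcription to processing, the UtpA complex, changed in both directions. Heatr1, its largest protein, stood at 76.1 and 82.5 CPM with DMSO and 37.3 and 34.8 CPM with the inhibitor (log2 fold change -1.14 ± 0.077, SE; adjusted p = 7.63e-07, edgeR). Utp15, a beta-propeller protein of the same complex, stood at 44.7 and 49.97 CPM with DMSO and 63.8 and 65.7 CPM with the inhibitor. The 2 genes thus moved apart in the same libraries with no overlap, and Utp15 had a log2 fold change of 0.45 ± 0.077 (SE; adjusted p = 0.000482, edgeR). The other 3 listed proteins of the complex were called lower, at -0.72 for Wdr75, -0.41 for Utp4 and -0.33 for Wdr43, all by edgeR. In the pair Utp15 was lower (14.7 FPKM in the DMSO library and 12.4 FPKM in the inhibitor library, a ratio of -0.23), as were Heatr1 (-0.50), Wdr75 (-0.46) and Wdr43 (-0.64), while Utp4 was near even at 0.049. Utp18, of the neighbouring UtpB complex, was called lower at -0.39.

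The 4 remaining genes of the small subunit did not pass the test. Nob1, the nuclease that cuts the last spacer from the 18S rRNA, had the highest DMSO level of the group in the pair (41.8 FPKM in the DMSO library and 32.3 FPKM in the inhibitor library) and stood at 79.4 and 89.5 CPM with DMSO and 92.02 and 91.7 CPM with the inhibitor in the count table. Both inhibitor libraries lay above both DMSO libraries, by 0.12 (adjusted p = 0.164, edgeR), and the gene was called higher with library totals (0.25) and with upper-quartile factors (0.20). Without DMSO replicate 2 the value was 0.024 (adjusted p = 0.878, edgeR). Utp14a, a cofactor of the helicase that frees U3, stood at 55.2 and 52.99 CPM with DMSO and 49.3 and 55.3 CPM with the inhibitor, with overlapping groups. Its log2 fold change of -0.048 turned to 0.077 with library totals, 0.032 with upper-quartile factors and 0.033 without MAPK13-IN-1 replicate 2. Utp20, a long scaffold protein, stood at 58.05 and 64.2 CPM with DMSO and 55.6 and 56.6 CPM with the inhibitor, a log2 fold change of -0.12 that was 0.0016 with library totals, -0.043 with upper-quartile factors, -0.21 without DMSO replicate 2 and -0.058 without DMSO replicate 3, not called in any. Nop14, the partner of Noc4l, had a log2 fold change of -0.14 and was called lower only without MAPK13-IN-1 replicate 2 (-0.20, adjusted p = 0.0017, edgeR), while it was -0.085 without MAPK13-IN-1 replicate 3 and -0.0098 with library totals.

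All 10 genes of large subunit assembly were called lower (100%, against 32.3% of all genes tested). Bop1, Pes1 and Wdr12 encode the PeBoW complex, which is needed to process the precursor of the large subunit rRNAs, and they fell by unequal amounts. Bop1 stood at 65.5 and 70.6 CPM with DMSO and 32.3 and 33.4 CPM with the inhibitor (log2 fold change -1.05 ± 0.076, SE; adjusted p = 1.19e-06, edgeR). Neither of the others fell as far, with log2 fold changes of -0.40 for Wdr12 and -0.28 for Pes1 (adjusted p = 0.00248, edgeR), the latter a call lost without DMSO replicate 3 (-0.23, adjusted p = 0.0548, edgeR). In the pair Bop1 was instead the highest of the 3 ratios, with Bop1 at 0.19, Pes1 at -0.33 and Wdr12 at -0.61. Nop16, a nucleolar protein of early large subunit particles, stood at 30.1 and 31.9 CPM with DMSO and 16.8 and 17.9 CPM with the inhibitor (-0.84, adjusted p = 2.56e-05, edgeR). Rrs1, which helps to bring in the 5S particle, stood at 41.3 and 40.1 CPM with DMSO and 26.7 and 21.99 CPM with the inhibitor (-0.74, adjusted p = 0.000113, edgeR). Both showed no overlap, and in the pair Nop16 was higher (0.18) and Rrs1 lower (-0.44).

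The remaining 5 genes of the large subunit had log2 fold changes between -0.56 and -0.22. Noc2l, shared by the early and later Noc complexes, had the highest DMSO level of the group in the pair (45.3 FPKM in the DMSO library and 41.4 FPKM in the inhibitor library) and stood at 209.8 and 210.4 CPM with DMSO and 145 and 161 CPM with the inhibitor (-0.46, adjusted p = 0.000116, edgeR). Noc3l, its partner in the Noc complexes, had a log2 fold change of -0.56. Those of Gtpbp4, a nucleolar GTPase, and Rrp1b, a nucleolar protein of early particles, were -0.34 and -0.31. Nop2, an rRNA cytosine methyltransferase, stood at 82.02 and 86.1 CPM with DMSO and 70.7 and 73.2 CPM with the inhibitor, the least change of the group (-0.22, adjusted p = 0.0118, edgeR). Its call was lost with library totals (-0.099), with upper-quartile factors (-0.14) and without DMSO replicate 3 (-0.20), and the pair was near even at 0.021.

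Of the 3 nucleolar DEAD-box helicases, Ddx21 alone was called lower (33.3%, near the 32.3% of all genes tested). Ddx21, which binds rDNA, rRNA and snoRNAs, was the most abundant in the pair (84.3 FPKM in the DMSO library and 57.2 FPKM in the inhibitor library) and stood at 296 and 307 CPM with DMSO and 191 and 162 CPM with the inhibitor (log2 fold change -0.77 ± 0.074, SE; adjusted p = 8.13e-06, edgeR). Ddx10 stood at 70.4 and 70.8 CPM with DMSO and 69.4 and 59.7 CPM with the inhibitor and Ddx18 at 64.8 and 63.9 CPM with DMSO and 61.00 and 57.2 CPM with the inhibitor, both helicases of precursor assembly. Their inhibitor libraries lay just under the DMSO libraries, with log2 fold changes of -0.13 for Ddx10 (adjusted p = 0.188, edgeR) and -0.12 for Ddx18 (adjusted p = 0.144, edgeR). Both were called lower without MAPK13-IN-1 replicate 2, at -0.24 for Ddx10 (adjusted p = 0.000896, edgeR) and -0.17 for Ddx18 (adjusted p = 0.025, edgeR), but not without MAPK13-IN-1 replicate 3, at -0.030 for Ddx10 (adjusted p = 0.694, edgeR) and -0.084 for Ddx18 (adjusted p = 0.271, edgeR). With library totals Ddx10 was at -0.0018 and Ddx18 at 0.0023.

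**Figure D2:**
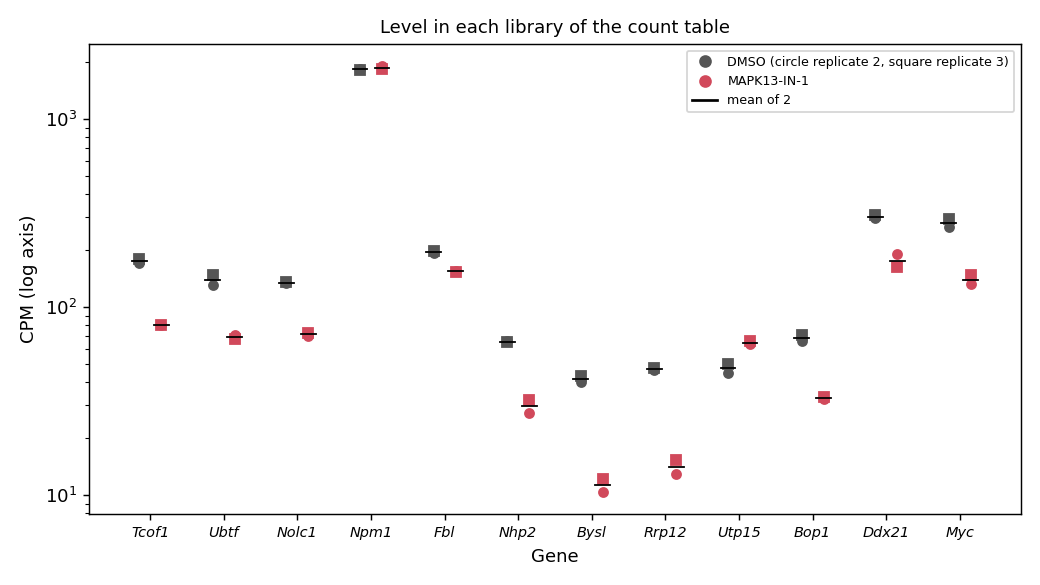
CPM (log axis) of 11 members and Myc in each of the 4 libraries of the count table, DMSO in grey and MAPK13-IN-1 in red, with a bar at the mean of 2 libraries. Npm1 overlaps between groups, Utp15 is higher with the inhibitor, and the others are lower, from 39.9 and 43.02 CPM with DMSO to 10.3 and 12.2 CPM with the inhibitor for Bysl.

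The size of a member's change in the count table said little about its size in the replicate 1 pair. Across the 44 genes, which are not independent replicates, Pearson's r between the log2 fold change and the ratio of the pair was 0.066 and Spearman's rho 0.12 (0.17 and 0.27 over the 15825 genes), while the sign was shared by 34 of 44 (77.3%, against 61.9%). The 2 sets of libraries differ in kit, in unit and in the level of B cell markers. Genotype, dose and day of addition are not given for replicate 1, so these may differ too. None of these can be told apart here. Samples of both sets share no library.

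Genes of the same pathway outside the list were more often lower than higher, but with exceptions by role. Of 125 other ribosome biogenesis genes, 73 (58.4%) were called lower and 15 (12%) higher, against 32.3% and 31.5% of all genes tested, with a median of -0.26, and in the pair 90 (72%) were below 0, against 39.3% of the 15825 genes. With library totals alone the split was 53 lower and 24 higher, against 26.4% and 38% of all genes under that scaling. Of the 40 other small subunit genes 24 (60%) were lower and 7 (17.5%) higher, and Tbl3, a UtpB protein, fell from 33.7 and 36.5 CPM with DMSO to 9.55 and 11.01 CPM with the inhibitor. Wdr46 (-1.32) and Pno1 (-0.99) were next. Of the 50 other large subunit genes 37 (74%) were lower and 3 (6%) higher, led by Nle1 (-1.35), Zfp593 (-1.23) and Rpf1 (-1.16). The exosome, which trims precursor ends, had 7 of 13 (53.8%) lower, led by its ring subunit Exosc5 (-1.82), Exosc1 (-1.29) and the nuclease Dis3 (-1.06). Among 10 snoRNP assembly genes 4 (40%) were lower, near the share of all genes, and 1 (10%) higher, with Pih1d1 at -1.15, Ruvbl2 at -0.55 and Nufip1 at 0.64. Of the other RNA polymerase I genes 1 of 12 (8.33%) was lower and 4 (33.3%) were higher, the latter near the share of all genes, and the 3 with the largest change all rose. Taf1a and Taf1d, subunits of the promoter factor SL1, rose by 1.001 and 0.70, and Polr1d, a subunit shared with RNA polymerase III, by 0.72. In the pair 5 of these 12 genes (41.7%) were below 0, near the 39.3% of the 15825 genes. Of the genes named here the pair pointed the other way for Wdr46 (0.15), Pno1 (0.040), Zfp593 (0.18), Nufip1 (-0.27) and Taf1d (-0.50).

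Ribosomal protein genes were compared as well, both the cytosolic ones, whose products the members assemble, and the mitochondrial ones. Of 79 cytosolic ribosomal protein genes 57 (72.2%) were called lower and 4 (5.06%) higher, against 32.3% and 31.5% of all genes tested, with a median of -0.20 (-0.18 in the pair, against 0.069 for all genes), a median nearer to 0 than the -0.40 of the members; Rps12 (-0.71) and Rpl36a (-0.68) were among those with the smallest p. The mitochondrial ribosomal protein genes had 40 of 78 (51.3%) lower and 11 (14.1%) higher, with a median of -0.28, and the 3 with the smallest p were Mrps6 (1.29), Mrps2 (-1.69) and Mrpl17 (-1.61). Of the genes named, those called lower but not below 0 in the pair were Rps12, which went there from 893 FPKM with DMSO to 1169 FPKM with the inhibitor (a ratio of 0.39), Mrps2 (0.048) and Mrpl17 (0.0007). The difference between the lists was not tested.

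Myc, the transcription factor that drives many of these genes, stood at 265 and 295 CPM with DMSO and 132 and 147 CPM with the inhibitor in the count table, a log2 fold change of -1.002 ± 0.072 (SE; adjusted p = 1.19e-06, edgeR). In the replicate 1 pair Myc was higher with the inhibitor (55.01 FPKM in the DMSO library and 73.7 FPKM in the inhibitor library). There 38 of the 44 members (86.4%) were lower, against 39.3% of the 15825 genes. A link between Myc and the members was not tested. The repressors that bind Myc sites with Max moved both ways, since Mxd3 and Mnt were called lower at -1.73 and -0.56 while Mxd1, Mxd4 and Mxi1 rose by 0.93, 0.56 and 0.37. Max, the partner of Myc, rose by 0.34, and Mlx, a Max-like protein, was called lower at -0.68. In the pair Mxd1 went from 6.41 FPKM with DMSO to 24.2 FPKM with the inhibitor, Mxd4 from 15.3 FPKM with DMSO to 37.04 FPKM with the inhibitor and Mxi1 from 15.2 FPKM with DMSO to 26.8 FPKM with the inhibitor, so that these 3 genes were higher in both sets. Mxd3 was lower in both, with a ratio of -1.07, and Max, Mlx and Mnt lay at -0.046, -0.14 and 0.019.

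Disturbed ribosome assembly is known to release ribosomal proteins that bind Mdm2 and stabilise p53, so 27 genes of the p53 response, its targets and the p53 gene Trp53, were read beside the members. By the count test 12 of 27 (44.4%) were called lower, against 32.3% of all genes tested. Called higher were 9 (33.3%), near the 31.5% of all genes tested, and the median was -0.032. Perp stood at 13.96 and 14.2 CPM with DMSO and 57.6 and 56.6 CPM with the inhibitor and Sesn1 at 24.6 and 24.5 CPM with DMSO and 67.6 and 59.4 CPM with the inhibitor, while Bbc3 stood at 115 and 123 CPM with DMSO and 53.2 and 51.2 CPM with the inhibitor, so that the 3 targets with the smallest p did not share a direction. In the pair 4 of 27 (14.8%) had a ratio below 0, against 39.3% of the 15825 genes, and the median was 0.80, against 0.069 for all genes; Bbc3, called lower, was at 0.30 there. Trp53, named after its values were seen, is not its own target and was among the 4 (-0.094). In the count table it had a log2 fold change of 0.12 (adjusted p = 0.0754, edgeR), and it was called higher with library totals (0.25), with upper-quartile factors (0.20), with at least 10 counts in every library (0.17) and without MAPK13-IN-1 replicate 2 (0.13).

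The promoters were searched for motifs on both strands, since most members moved together. The RefSeq table (GRCm38.p6, 250 bases before to 50 after each start) held 47 promoters of 38 members. The E-box CACGTG, the preferred site of Myc and Max, was in 7 of these 47 (14.9%), in 5 of the 37 promoters of members called lower (13.5%), and in 7.15% of all 32851 promoters or 9.15% of those of the genes tested. CTTTGAT, the core of Tcf1 sites, was in 2 of 47 (4.26%) and in 1 of the 37 of members called lower (2.7%), against 3.73% of all promoters and 2.58% of those of the genes tested. TGATGNAA, the composite site of Atf4 and C/EBP, was also in 2 of 47 (4.26%) and 1 of 37 (2.7%), against 3.97% and 2.47%. The motifs do not overlap in the stretches shown, and a match is a description of letters only. The stretches that hold a motif before the start of a called member are printed 5′ to 3′ on the strand of the gene, with the motif in capitals, for Utp18 (chr11:93885767-93885816, minus strand), Nop2 (chr6:125131793-125131858, plus strand), Noc4l (chr5:110653418-110653484, minus strand) and Gtpbp4 (chr13:8996084-8996151, minus strand). They are followed by the 100 bases before the start of Bysl (chr17:47611493-47611592, minus strand) and Nhp2 (chr11:51619673-51619772, plus strand), the 2 members with a promoter in the table that fell most, whose 300 bases hold none of the 3 motifs.
Utp18: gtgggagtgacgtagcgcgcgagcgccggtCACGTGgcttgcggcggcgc
Nop2: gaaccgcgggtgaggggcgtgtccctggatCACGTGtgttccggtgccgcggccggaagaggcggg
Noc4l: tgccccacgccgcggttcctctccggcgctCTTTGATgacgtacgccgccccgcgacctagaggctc
Gtpbp4: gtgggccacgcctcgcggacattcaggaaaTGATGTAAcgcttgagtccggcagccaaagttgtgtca
Bysl: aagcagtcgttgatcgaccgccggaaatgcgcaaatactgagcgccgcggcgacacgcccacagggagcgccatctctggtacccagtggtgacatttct
Nhp2: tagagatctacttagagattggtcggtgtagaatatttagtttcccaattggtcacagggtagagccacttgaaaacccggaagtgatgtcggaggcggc
Noc4l, with CTTTGAT, was called lower at -1.08, and the members with an E-box before the start, Utp18 and Nop2, at -0.39 and -0.22. Bysl and Nhp2 were picked for the size of their fall, so their values say nothing about the motif.

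Shared bases were read in the GENCODE annotation of GRCm38, with snoRNA, snRNA and miRNA genes left out. There 18 of the 44 members share exonic bases with a gene on the other strand. For 4 of them this is over 5% of their exonic length: Noc2l 20.9% (with Samd11), Utp14a 11.5%, Bysl 9.37% (with Ccnd3) and Nop14 5.27%. Use of strand in the counting is not stated for replicates 2 and 3, so reads from these shared bases cannot be told apart. Bysl spans chr17:47599331-47611492 on the minus strand in that annotation. Utp15 spans chr13:98246845-98263041 on the minus strand, with no base shared with the genes that were counted.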

How the data were processed

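Counts of replicates 2 and 3 were deposited as whole numbers per gene; the submitters' processing notes list fastp 0.21.0, HISAT2 2.1.0, StringTie 2.1.5 and DESeq2 1.30.1 and the build mm10 for them, with no role. The replicate 1 values, FastQC and HISAT2 noted, were deposited with no unit named and were read as FPKM because they are not whole and sum to 405150 and 390729. Counts were filtered with filterByExpr (count minimum 10, total minimum 15), scaled by TMM and tested with edgeR 4.0.16 (R 4.3.3) by a quasi-likelihood test of inhibitor against DMSO without a block, with Benjamini-Hochberg adjustment over all genes. Libraries of the same group were not copies of each other (chi-square per gene 2.94 for DMSO and 8.82 for the inhibitor in the mean, 0.98 and 1.92 in the median) and each counted as a sample. The test was tried on simulated counts, and a gene not called is not shown to be unchanged. FPKM ratios used a pseudocount of 1. Values in every library were given, per role, for up to 3 called genes with the largest change, the gene highest in DMSO replicate 1 and up to 3 that were not called or moved against the rest, in either set. Of other lists, up to 3 genes by size or p and every Myc network gene were named, most by their change alone. A gene that this rule would name is not reported here. Alternatives were other scalings, filters, DESeq2 1.42.0, a block, a threshold of 0.01 and leaving out each library. The members and lists were chosen with earlier results of these data known.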

Additional observations from a re-analysis of the deposited data

Results flagged for a closer look

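For 7 members called in the count table, the replicate 1 pair pointed the other way, and the difference was not tested. Called lower but with a ratio above 0 in the pair were Bop1 (0.19), Nop16 (0.18), Nhp2 (0.17), Rrp9 (0.13), Utp4 (0.049) and Nop2 (0.021). Utp15, called higher, had a ratio of -0.23. The pair has 1 library a group.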

How the results depend on the processing

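With no library left out, the count of members called lower lay between 31 and 33 under every setting tried. Of the 33 called lower, 31 were shared with library totals and 32 with DESeq2. The share of all genes called lower was 26.4% with library totals, 28.5% with upper-quartile factors and 21.8% with DESeq2, against 32.3% as reported. Library totals moved the median of all genes from 0.012 to 0.14 and upper-quartile factors to 0.092; the members' median of -0.40 became -0.28 and -0.32, and 3 members instead of 1 were called higher under each of these. Small falls that stayed called became smaller with library totals, to -0.12 for Ncl, -0.15 for Pes1, -0.19 for Rrp1b, -0.21 for Wdr43, -0.21 for Gtpbp4 and -0.23 for Fbl. Leaving out each library gave a members' median of -0.47 to -0.37. Other ribosome biogenesis genes called higher went from 15 to 24 with library totals, under which 38% of all genes were called higher. Among the genes named, signs turned only for those not called: with library totals Mybbp1a (0.079), Utp14a (0.077), Utp20 (0.0016) and Ddx18 (0.0023), and with upper-quartile factors Mybbp1a (0.034) and Utp14a (0.032). Other members not called moved without a turn of sign, with library totals first and upper-quartile factors second: Polr1a 0.14 and 0.095, Gnl3 -0.021 and -0.066, Nop14 -0.0098 and -0.055, and Ddx10 -0.0018 and -0.047; with the second, Utp20 was at -0.043 and Ddx18 at -0.042. The marker Cd4, at -0.0006, was 0.013 with RLE factors, 0.080 with upper-quartile factors, 0.12 with library totals, 0.044 with at least 10 counts in every library and 0.0079 with DESeq2, not called in any. When each library was left out in turn, Polr1a ranged from -0.059 to 0.070, Mybbp1a from -0.13 to 0.015, Npm1 from -0.0002 to 0.060, Gnl3 from -0.34 to 0.016 and Utp14a from -0.14 to 0.033. Cd4 ranged from -0.050 to 0.041. Nob1, not called, ranged from 0.024 to 0.20, Nop14 from -0.20 to -0.085, Utp20 from -0.21 to -0.058, Ddx18 from -0.17 to -0.084 and Ddx10 from -0.24 to -0.030. The cause was not tested. The fit without a library leaves 1 sample in a group, assumed to vary like the other group. Same-numbered samples did not deviate together (correlation -0.0064 over genes), and with a replicate block 33 members were called lower, with a median of -0.40, 5384 genes lower and 5261 higher over all, and no call of a named gene changed. In the pair, a pseudocount of 0.1 and a minimum of 1 FPKM left 38 members below 0. The lowest member count was 367.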
